A study of Arabidopsis thaliana with 12 samples.

Results

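The genes examined lie beside SOB3 (AT1G76500) on chromosome 1 of Arabidopsis thaliana. They are the loci numbered AT1G76200 to AT1G76800 that have values in all 12 libraries, in order along the chromosome, without SOB3 itself and without AT1G76520, AT1G76530 and AT1G76540. This gave 54 of the 25089 loci measured. Each locus was read through the transcript with the highest mean over the 12 libraries, and 11 of the 54 loci had more than 1 transcript. Their start sites ran from -111.75 to 124.28 kb relative to the start of SOB3, with 25 loci on the strand of SOB3 and 29 on the opposite strand. The study used RNA-seq to look for genes regulated by AHL and PIF transcription factors in juvenile rosettes. It had 3 libraries of each of 4 genotypes. These were sob3-6, labelled a dominant-negative ahl mutant, SOB3-D, labelled an AHL overexpressor, pif4 pif5 pif7, a triple mutant labelled loss-of-function, with the alleles pif4-101, pif5(pil6-1) and pif7-1, and the wild type Col-0. All plants were of the Columbia (Col-0) ecotype and were 14 days old. They grew in 16 h light and 8 h dark at 22 °C, with a light intensity labelled 35 to 55 µmol. They were harvested as the shoot above the severed hypocotyl at ZT4, 4 h after lights on.

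AHL proteins carry an AT-hook that binds AT-rich DNA, and SOB3 is a family member known for holding back elongation of the hypocotyl and petiole. PIFs are bHLH transcription factors that promote elongation and that light-activated phytochromes restrain. From earlier work, and not from the labels, SOB3-D is known as an activation-tagged line, in which enhancers on inserted DNA raise transcription near the insertion, and sob3-6 as an intragenic mutant made in that line. Such enhancers can act on more than 1 gene, so the question put to these loci was whether neighbours of SOB3 moved alike in both AHL lines and did not move in pif4 pif5 pif7. The inserted DNA was not analysed here, and each genotype was 1 named line. The labels do not state that replicates were separate cultures. The p-values therefore rest on library-to-library spread, part or all of which may be technical.

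SOB3 itself averaged 227 ± 8.4 ppm in sob3-6, 196 ± 14 ppm in SOB3-D, 0.19 ± 0.15 ppm in pif4 pif5 pif7 and 0.145 ± 0.16 ppm in Col-0 (SD, n = 3 each). Here ppm is the unit of the deposited values, a scaled share of the mapped tags. In pif4 pif5 pif7 against Col-0, PIF4 averaged 77.4 ± 4.5 and 139 ± 6.1 ppm, PIF5 19.1 ± 2.3 and 193 ± 2.5 ppm, and PIF7 6.48 ± 0.61 and 45.2 ± 1.4 ppm (SD, n = 3). Of the other loci left out, the auxin efflux carrier family genes AT1G76520 and AT1G76530 averaged 40.1, 27.2, 29.3 and 28.4 ppm and 1.48, 1.61, 2.87 and 2.77 ppm in sob3-6, SOB3-D, pif4 pif5 pif7 and Col-0. Libraries held 10179924 to 12567173 reads in sob3-6, 7637822 to 8877404 in SOB3-D, 13809707 to 14734732 in pif4 pif5 pif7 and 14488308 to 16075498 in Col-0, so values were least precise in SOB3-D. The 6 shoot markers summed to between 39152 and 49141 ppm in every library, the 8 root markers to between 0.786 and 2.97 ppm, and the 4 flower markers to at most 0.873 ppm. In bulk shoots, fewer cells of a type and less RNA per cell cannot be told apart.

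To show the DNA from which these transcripts start, the 250 bases before the start of 5 genes are printed from the RefSeq genome of build TAIR10.1, while the submitters' processing notes name TAIR10. SOB3 and HMG1, its nearest neighbour upstream, are shown because the results turn on that pair. AT1G76240 had the change farthest from 0 over Col-0 among the genes beside SOB3. DWA2 and AT1G76660 were 2 of the 5 genes in which all 6 libraries of the AHL lines lay above the other 6. Capitals mark the G-box CACGTG, a site known to be bound by PIFs, or the related PBE-box CACATG, which reads CATGTG on the other strand.
SOB3, chr1:28704713-28704962, + strand: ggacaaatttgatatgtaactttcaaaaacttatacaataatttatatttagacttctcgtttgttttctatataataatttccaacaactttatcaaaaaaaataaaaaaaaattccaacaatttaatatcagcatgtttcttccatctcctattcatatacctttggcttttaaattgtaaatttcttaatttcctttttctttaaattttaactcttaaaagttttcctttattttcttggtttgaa
HMG1, chr1:28695510-28695759, + strand: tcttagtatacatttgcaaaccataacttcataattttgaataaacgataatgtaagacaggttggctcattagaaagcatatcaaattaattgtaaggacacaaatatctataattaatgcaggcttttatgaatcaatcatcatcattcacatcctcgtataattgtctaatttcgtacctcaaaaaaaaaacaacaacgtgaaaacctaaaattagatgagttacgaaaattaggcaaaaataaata
AT1G76240, chr1:28603933-28604182, - strand: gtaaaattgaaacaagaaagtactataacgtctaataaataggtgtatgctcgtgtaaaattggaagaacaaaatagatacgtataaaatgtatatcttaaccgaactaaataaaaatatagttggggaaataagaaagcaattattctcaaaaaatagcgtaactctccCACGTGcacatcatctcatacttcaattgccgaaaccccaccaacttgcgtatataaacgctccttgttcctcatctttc
DWA2, chr1:28609943-28610192, + strand: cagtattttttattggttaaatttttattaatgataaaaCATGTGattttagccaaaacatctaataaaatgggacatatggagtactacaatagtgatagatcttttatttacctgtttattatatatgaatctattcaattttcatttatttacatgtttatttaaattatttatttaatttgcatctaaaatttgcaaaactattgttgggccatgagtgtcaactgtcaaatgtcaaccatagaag
AT1G76660, chr1:28771539-28771788, - strand: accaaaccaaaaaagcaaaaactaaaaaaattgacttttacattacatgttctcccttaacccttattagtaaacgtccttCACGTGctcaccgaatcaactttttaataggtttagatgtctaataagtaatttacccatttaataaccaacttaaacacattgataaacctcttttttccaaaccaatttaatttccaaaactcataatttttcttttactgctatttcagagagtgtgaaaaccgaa
The windows of SOB3 and HMG1 held neither motif. Nor did those of PUB43 and CP12-3, which are not printed and were also higher in both AHL lines than in the other 2 genotypes. The G-box lay at -80 to -75 before AT1G76240 and at -169 to -164 before AT1G76660, and the PBE-box at -211 to -206 before DWA2, counted from the start site. Searched on both strands, the G-box was in 7.3% of the same windows of 18300 tested genes and in 5 of the 46 tested genes beside SOB3 (10.9%). The PBE-box was in 11.1% of all windows and in 6 of the 46 (13%). The AT-rich word AATATATT was in 4.31% of all windows and in 1 of the 46 (2.17%), that of AT1G76620. A match of letters is a description and not a bound site. The median share of A and T was 68.8% over the 46 windows and 68.4% over all, with 78.4% before SOB3 and 72.4% before HMG1.

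Of the 54 loci, 46 reached 1 ppm in at least 3 of the 12 libraries and were tested. CML38, a calmodulin-like gene, did so in 4, and would not have passed without the 2 of these that were of pif4 pif5 pif7. The other 8 never exceeded 0.789 ppm. Among these, PHT1;9, a phosphate transporter gene, AT1G76470 and AT1G76210 were listed at 0 in all 12 libraries, which allows up to 3 reads per library, or 0.187 to 0.393 ppm. The remaining 5 were AT1G76220, AT1G76230, AT1G76640, AT1G76705 and AT1G76770. Comparisons used limma on log2(ppm + 1), and a gene was called at a Benjamini-Hochberg adjusted p under 0.05 over all 25710 transcripts kept. Changes are on that scale, and a given fold change reads smaller there for genes near or under 1 ppm.

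No gene beside SOB3 came near the log2 change of SOB3 itself, which was 7.65 in sob3-6 over Col-0 and 7.44 in SOB3-D over Col-0. The 46 changes lay over Col-0 between -1.21 and 0.48 in sob3-6, between -1.60 and 1.24 in SOB3-D, and in pif4 pif5 pif7 between -0.44 and 0.31. Their medians were 0.14, 0.05 and 0.01, beside medians over all 18502 tested genes of 0.06, -0.02 and -0.04. These 3 comparisons share the Col-0 libraries.

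**Figure D1:**
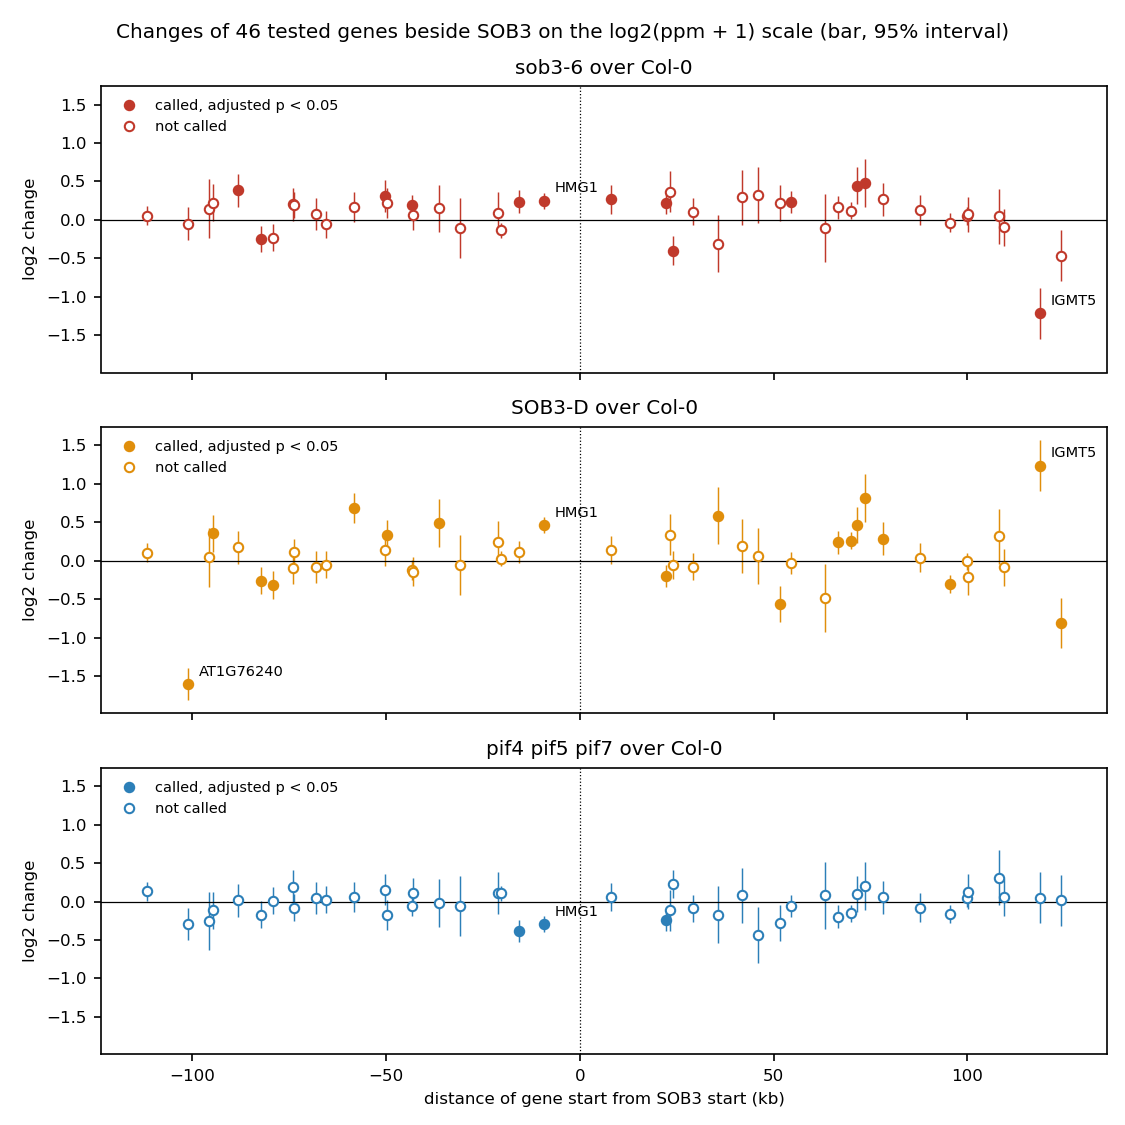
Log2 change on the log2(ppm + 1) scale (y) against the distance of each gene's start from the start of SOB3 in kb (x), in panels for sob3-6, for SOB3-D and for pif4 pif5 pif7 over Col-0, with bars for 95% intervals. Filled points passed limma's adjusted p threshold, open points did not, and the points farthest from 0 are IGMT5 and AT1G76240, over 100 kb from SOB3.

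In sob3-6 over Col-0, 10 of the 46 genes were called higher (21.7%), beside 9.43% of all tested genes, and 3 were called lower (6.52%), where 3.95% were. In either direction these made 28.3%, beside 13.4% of all tested genes. In the outer flanks, the 99 tested loci next in number on either side, 11 were higher (11.1%) and 5 lower (5.05%). The higher count depended on the scaling. After median-of-ratios scaling 3 were higher and 6 lower, and after quantile normalization 2 were higher and 6 lower. The shares of all tested genes called after either scaling were not counted, here or in the comparisons below. The median change over all tested genes also moved, from 0.0607 to 0.0015 and 0.0038, so the shares above give no measure beside these counts. The higher count was 6 when Col-0 replicate 2, Col-0 replicate 3 or sob3-6 replicate 1 was left out. It was 4 when sob3-6 replicate 2 was left out, 2 when Col-0 replicate 1 was and 1 when sob3-6 replicate 3 was.

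In SOB3-D over Col-0, 12 of the 46 genes were called higher (26.1%) and 7 lower (15.2%), where 11.6% of all tested genes were called higher and 14.9% lower. The lower share was thus close to that of all genes. In either direction 41.3% were called, beside 26.4% of all tested genes. In the outer flanks 10 of 99 were higher (10.1%) and 12 lower (12.1%). In pif4 pif5 pif7 over Col-0, limma called 0 higher, where 1.5% of all tested genes were higher, and 3 lower (6.52%), where 4.83% were lower and 6.33% were called in either direction. At an unadjusted limma p under 0.05, 12 of the 46 passed in that comparison in either direction, against 22 in sob3-6 and 21 in SOB3-D over Col-0. The share of all tested genes at that threshold was not counted. In pif4 pif5 pif7 over Col-0, edgeR on whole reads called 2 of the 46 higher and 4 in either direction, beside 1417 of all 18502 tested genes. DESeq2 called 0 higher. In the outer flanks 2 of 99 were higher (2.02%) and 3 lower (3.03%).

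When both AHL lines together were set against the mean of pif4 pif5 pif7 and Col-0, 18 of the 46 were called higher (39.1%), where 21.5% of all tested genes were, and 6 lower (13%), where 11.4% were. The outer flanks had 22 of 99 higher (22.2%) and 10 lower (10.1%). After quantile normalization 12 of the 46 were higher and 7 lower, and after median-of-ratios scaling 14 and 7.

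**Figure D2:**
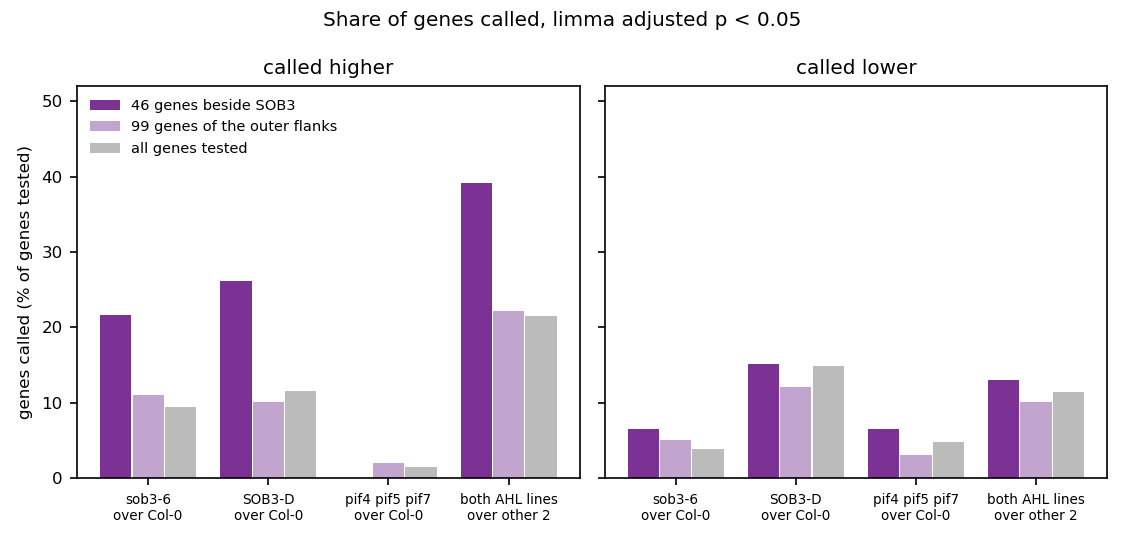
Percent of tested genes called higher (left) and lower (right) by limma in 4 comparisons (x), for the 46 genes beside SOB3, the 99 genes of the outer flanks and all tested genes. The genes beside SOB3 have the taller bars for higher calls in both AHL lines (21.7% and 26.1%), while for lower calls in SOB3-D they stand at 15.2% beside 14.9% of all genes.

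HMG1, which codes for HMG-CoA reductase, the rate-limiting enzyme of the mevalonate route to sterols, is the nearest tested neighbour on the upstream side. It lies on chromosome 1 from 28695760 to 28698852 on the + strand, with 6110 bases between its end and the start of SOB3 at 28704963. It was read at 280, 299 and 324 ppm in sob3-6, at 331, 370 and 346 ppm in SOB3-D, at 201, 208 and 208 ppm in pif4 pif5 pif7, and at 244, 252 and 263 ppm in Col-0. All 6 AHL-line libraries lay above the other 6, and the 3 pif4 pif5 pif7 libraries lay below all others. HMG1 rose in sob3-6 (log2 change 0.25, SE 0.05, limma adjusted p = 0.00115) and in SOB3-D (0.46, SE 0.05, adjusted p = 3.1e-08) over Col-0. It fell in pif4 pif5 pif7 (-0.29, SE 0.05, adjusted p = 0.000385), so it also moved outside the AHL lines. Between the AHL lines it was lower in sob3-6 than in SOB3-D (-0.21, SE 0.05, adjusted p = 0.00142), where the difference of SOB3 itself was 0.21 and not called (adjusted p = 0.106). All of these calls were kept under each of the 20 alternatives run, with adjusted p between 3.22e-05 and 0.0211 for sob3-6 over Col-0.

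On the other side of SOB3 the nearest gene is AT1G76510, which codes for a protein with an ARID/BRIGHT DNA-binding domain. It lies tail to tail with SOB3 on the - strand, from 28708339 to 28712968, with 1647 bases between their ends. Its values were 15.6, 16.2 and 16.1 ppm in sob3-6, 12.7, 15.7 and 15.3 ppm in SOB3-D, 13.7, 13.4 and 13.8 ppm in pif4 pif5 pif7, and 12.4, 12.5 and 14.4 ppm in Col-0. The sob3-6 libraries lay above those of Col-0, and those of SOB3-D overlapped them. The gene rose in sob3-6 over Col-0 (0.27, SE 0.09, limma adjusted p = 0.0453). That call was lost without Col-0 replicate 1 or 2, or any one library of sob3-6 or pif4 pif5 pif7 (adjusted p = 0.0505 to 0.153), and with edgeR on whole reads (0.105). It was also lost with no filter, median-of-ratios scaling, quantile normalization and DESeq2. In SOB3-D over Col-0 the change was 0.14 (95% interval -0.05 to 0.32, adjusted p = 0.288).

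Further upstream, AT1G76460, an RNA-binding protein gene with RRM motifs, had 31.2, 31.5 and 32.9 ppm in sob3-6, 28.3, 30 and 29.1 ppm in SOB3-D, 20, 21.6 and 19.6 ppm in pif4 pif5 pif7, and 25.6, 29.5 and 25.6 ppm in Col-0. The pif4 pif5 pif7 libraries were the lowest, and those of SOB3-D overlapped those of Col-0. It rose in sob3-6 (0.24, SE 0.07, limma adjusted p = 0.0237) and fell in pif4 pif5 pif7 (-0.38, SE 0.07, adjusted p = 0.00105). The sob3-6 call was lost without Col-0 replicate 1 (adjusted p = 0.108), Col-0 replicate 3 (0.115), sob3-6 replicate 2 (0.0574) or sob3-6 replicate 3 (0.0988). It was also lost with median-of-ratios scaling, quantile normalization, edgeR and DESeq2. The annotation of AT1G76460 overlaps AT1G76465 by 383 bases and AT1G76450 by 64, and the sources used here do not say if strand was used in counting. AT1G76450, a gene of the photosystem II PsbP family, had 101, 107 and 105 ppm in sob3-6, 117, 122 and 112 ppm in SOB3-D, 123, 123 and 124 ppm in pif4 pif5 pif7, and 117, 115 and 112 ppm in Col-0. Its sob3-6 libraries were below all others. The change in sob3-6 over Col-0 was -0.13 (SE 0.05, limma adjusted p = 0.0631). It passed without SOB3-D replicate 2 (0.0437) and after median-of-ratios scaling (0.00523). It also passed with quantile normalization, edgeR and DESeq2. AT1G76450 was called lower in sob3-6 than in SOB3-D (-0.16, SE 0.05, adjusted p = 0.00968). AT1G76440, of the HSP20-like chaperone family, had 5.69, 4.81 and 4.93 ppm in sob3-6, 6.42, 5.07 and 6.08 ppm in SOB3-D, 5.22, 4.34 and 6.16 ppm in pif4 pif5 pif7, and 4.29, 4.8 and 5.18 ppm in Col-0. Its genotypes overlapped, and it was called in no comparison. PHT1;9 and AT1G76470, the other neighbours among the nearest 6 upstream, were at 0.

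Downstream beyond the left-out loci, AT1G76550, of the phosphofructokinase family, had 36.6, 37.1 and 37.3 ppm in sob3-6, 25.9, 28.6 and 27.6 ppm in SOB3-D, 25.8, 28.3 and 25.9 ppm in pif4 pif5 pif7, and 29.4, 31.2 and 34.4 ppm in Col-0. The sob3-6 libraries were above all others and those of SOB3-D below those of Col-0. It rose in sob3-6 (0.22, SE 0.07, limma adjusted p = 0.029) and fell in SOB3-D (-0.20, SE 0.07, adjusted p = 0.0315) and in pif4 pif5 pif7 (-0.24, SE 0.07, adjusted p = 0.0346). The 2 AHL lines differed (0.42, SE 0.07, adjusted p = 1.76e-05, sob3-6 over SOB3-D). Each of the 3 calls over Col-0 was lost without single libraries. In sob3-6 these were Col-0 replicate 1 (0.157) and 2 (0.0933) and any one sob3-6 library (0.0591 to 0.0879), and in SOB3-D they were Col-0 replicate 2 (0.0603) and 3 (0.21) and SOB3-D replicate 1 (0.122) and 3 (0.0524). In pif4 pif5 pif7 they were Col-0 replicate 2 (0.0784) and 3 (0.23) and pif4 pif5 pif7 replicate 1 (0.139) and 3 (0.118). All 3 calls were also lost with edgeR and with DESeq2. Those in sob3-6 and pif4 pif5 pif7 were lost with median-of-ratios scaling and quantile normalization too.

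CP12-3, a member of the CP12 family of Calvin cycle regulators, had 6.25, 5.7 and 6.05 ppm in sob3-6, 5.37, 6.42 and 5.84 ppm in SOB3-D, 3.72, 4.61 and 3.77 ppm in pif4 pif5 pif7, and 4.48, 5.17 and 3.73 ppm in Col-0. All 6 AHL-line libraries lay above the other 6. The changes over Col-0 were 0.37 (SE 0.13, limma adjusted p = 0.0582) in sob3-6 and 0.34 (SE 0.13, adjusted p = 0.0534) in SOB3-D. Neither passed, although both did without Col-0 replicate 2 (0.0447 and 0.0309), and the SOB3-D change did without SOB3-D replicate 1 (0.0448). With both AHL lines over the other 2 genotypes it rose (0.41, SE 0.09, adjusted p = 0.000937). AT1G76570, of the chlorophyll a/b-binding family, had 13.2, 11 and 11.1 ppm in sob3-6, 16.1, 14.3 and 15.1 ppm in SOB3-D, 19.9, 18.9 and 17.4 ppm in pif4 pif5 pif7, and 16.5, 15.9 and 15 ppm in Col-0. Its sob3-6 libraries were below all others. It fell in sob3-6 over Col-0 (-0.40, SE 0.09, adjusted p = 0.003), while the change in SOB3-D was -0.06 (95% interval -0.24 to 0.13, adjusted p = 0.7). The test of sob3-6 over SOB3-D gave -0.34 (SE 0.09, adjusted p = 0.00363). The 6 shoot markers, among them genes of photosynthesis, also summed lower, to 39152 to 40804 ppm in sob3-6, 42475 to 44848 ppm in SOB3-D and 43208 to 44793 ppm in Col-0, and their part in this result was not tested.

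The last of the nearest genes downstream code for transcription factors. AT1G76580, with an SBP domain, had 25.3, 23.7 and 26.9 ppm in sob3-6, 18.6, 24.8 and 23.5 ppm in SOB3-D, 22.1, 22.8 and 21 ppm in pif4 pif5 pif7, and 22.1, 23.3 and 24.9 ppm in Col-0. Its genotypes overlapped with Col-0, and it was called in no comparison. AT1G76590, of the PLATZ family, had 0.962, 0.884 and 0.955 ppm in sob3-6, 2.75, 2.48 and 2.57 ppm in SOB3-D, 0.859, 1.49 and 1.09 ppm in pif4 pif5 pif7, and 0.871, 1.25 and 2.28 ppm in Col-0. The SOB3-D libraries were above all others, and those of Col-0 spread widely. It rose in SOB3-D over Col-0 (0.59, SE 0.18, limma adjusted p = 0.0153). That call was lost without Col-0 replicate 1 (0.142) or Col-0 replicate 2 (0.0629), and with DESeq2. AT1G76590 was lower in sob3-6 than in SOB3-D (-0.90, SE 0.18, adjusted p = 0.00026).

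Counted together, the 6 nearest of the 54 loci on each side gave 10 tested genes. Of these, 4 were called higher and 1 lower in sob3-6 over Col-0, 2 higher and 1 lower in SOB3-D over Col-0, and 0 higher and 3 lower in pif4 pif5 pif7 over Col-0. Over all tested genes 9.43% were higher and 3.95% lower in sob3-6, and 11.6% and 14.9% in SOB3-D. In pif4 pif5 pif7 these shares were 1.5% and 4.83%, and no test of the nearest genes against them was made. Of the 36 genes farther away, 6 were higher and 2 lower in sob3-6, 10 higher and 6 lower in SOB3-D, and 0 higher and 0 lower in pif4 pif5 pif7. So all 3 genes called in pif4 pif5 pif7, AT1G76460, HMG1 and AT1G76550, were among the nearest 10. None of these met the pattern asked about. HMG1 was called higher in both AHL lines and missed the pattern through its call in pif4 pif5 pif7. AT1G76460 was not called in SOB3-D over Col-0 (0.11, limma adjusted p = 0.269), and AT1G76550 moved in opposite directions in the AHL lines.

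The pattern was met in full by 3 loci. They were called in the same direction in both AHL lines over Col-0 and not called in pif4 pif5 pif7 over Col-0, which is 6.52% of the 46 and 2.7% of all tested genes (1.57% higher and 1.12% lower). In the outer flanks 4 of 99 met it (4.04%). OPR1 and OPR2, a tandem pair of 12-oxophytodienoate reductase genes on the strand of SOB3, were higher, and AT1G76280, of the tetratricopeptide repeat family, was lower. None of them was among the nearest 12 of the 54 loci, their starts lying at 71.66, 73.66 and -82.19 kb from that of SOB3. AT1G76530, which was left out of the 54, starts closer to SOB3, at 13.11 kb. It also met the pattern, being lower in both AHL lines, and its values are given at the end.

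OPR1 had 41.4, 39.9 and 45.3 ppm in sob3-6, 46.2, 42 and 39.7 ppm in SOB3-D, 31.3, 28.3 and 40.2 ppm in pif4 pif5 pif7, and 28.5, 29.4 and 34.4 ppm in Col-0. Both AHL lines lay above Col-0 in every library, and 1 pif4 pif5 pif7 library overlapped them. The changes were 0.45 in sob3-6 (SE 0.11, limma adjusted p = 0.0154), 0.46 in SOB3-D (SE 0.11, adjusted p = 0.00619) and 0.10 in pif4 pif5 pif7 (95% interval -0.14 to 0.34, adjusted p = 0.691). Over pif4 pif5 pif7, OPR1 was called higher in sob3-6 (0.35, limma adjusted p = 0.0251) and in SOB3-D (0.36, adjusted p = 0.0201). The sob3-6 call was lost under 10 of 20 alternatives, among them either scaling, edgeR and DESeq2, and the SOB3-D call under 4. OPR2 had 9.78, 7.17 and 8.83 ppm in sob3-6, 11.1, 10.9 and 11.2 ppm in SOB3-D, 7.94, 5.29 and 7.75 ppm in pif4 pif5 pif7, and 4.29, 6.55 and 7.04 ppm in Col-0. The AHL lines again lay above Col-0, while sob3-6 and pif4 pif5 pif7 overlapped. The changes were 0.48 in sob3-6 (SE 0.15, adjusted p = 0.0379), 0.82 in SOB3-D (SE 0.15, adjusted p = 0.000251) and 0.21 in pif4 pif5 pif7 (95% interval -0.11 to 0.52, adjusted p = 0.498). In sob3-6 over pif4 pif5 pif7 OPR2 was not called (0.27, adjusted p = 0.174). The annotations of OPR1 and OPR2 overlap by 216 bases on 1 strand and the genes are closely related, so their reads may be shared.

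AT1G76280 had 19.3, 16.8 and 16.9 ppm in sob3-6, 16.4, 19.3 and 16.9 ppm in SOB3-D, 18.3, 18.5 and 19.2 ppm in pif4 pif5 pif7, and 19.8, 20.6 and 23.1 ppm in Col-0. All 3 altered genotypes lay below Col-0. The changes were -0.25 in sob3-6 (SE 0.08, limma adjusted p = 0.0465), -0.26 in SOB3-D (SE 0.08, adjusted p = 0.0215) and -0.17 in pif4 pif5 pif7 (95% interval -0.34 to 0.00, adjusted p = 0.257). Against pif4 pif5 pif7 it was called in neither AHL line. The sob3-6 calls of all 3 genes were lost without single libraries. OPR1 went to adjusted p = 0.0592 when Col-0 replicate 1 was left out, 0.0651 when Col-0 replicate 2 was and 0.065 when sob3-6 replicate 3 was. OPR2 went to 0.207 when Col-0 replicate 1 was left out, 0.144 and 0.121 when sob3-6 replicate 1 or 3 was, and to 0.0522 to 0.0543 without any one SOB3-D library. AT1G76280 went to 0.0856 and 0.228 when Col-0 replicate 2 or 3 was left out, 0.163 and 0.16 when sob3-6 replicate 2 or 3 was, and to 0.0516 to 0.0563 without any one pif4 pif5 pif7 library. Its SOB3-D call went to 0.143 without Col-0 replicate 3, 0.0908 without SOB3-D replicate 1 and 0.0654 without SOB3-D replicate 3. That SOB3-D call was also lost with DESeq2, and the sob3-6 call of AT1G76280 with no filter. The count of 3 became 1 without Col-0 replicate 1, SOB3-D replicate 1 or SOB3-D replicate 3, and 0 without sob3-6 replicate 3. It was 1 with no filter, 2 with DESeq2, and 4 with either scaling, with edgeR or with only the genotypes compared. The sob3-6 call of OPR2 was also lost with no filter, either scaling, edgeR and DESeq2. The 4 genes counted with either scaling or with edgeR therefore did not include OPR2.

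Another way to ask whether the AHL lines stand together is to compare libraries directly. In 6 of the 46 genes (13%) the 6 AHL-line libraries did not overlap the other 6, which held for 5.98% of all tested genes (3.95% higher and 2.03% lower) and for 8 of 99 in the outer flanks (8.08%). HMG1, CP12-3, DWA2, PUB43 and AT1G76660 were higher, and SmD3 was lower. The count was 4 after median-of-ratios scaling and after quantile normalization.

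DWA2, which codes for a WD40 substrate receptor of a DDB1-CUL4 ubiquitin ligase in the abscisic acid response, had 7.69, 8.35 and 8.43 ppm in sob3-6, 9.69, 9.01 and 8.41 ppm in SOB3-D, 7.08, 5.23 and 6.52 ppm in pif4 pif5 pif7, and 7.53, 6.61 and 6.42 ppm in Col-0. The lowest AHL-line library was just above the highest Col-0 library. With both AHL lines over the other 2 genotypes it rose by 0.35 (SE 0.08, limma adjusted p = 0.00149). PUB43, of the U-box ubiquitin ligase family, had 16, 16.6 and 17.2 ppm in sob3-6, 16.5, 16.4 and 21.5 ppm in SOB3-D, 13.1, 12.1 and 12 ppm in pif4 pif5 pif7, and 14.1, 13.3 and 15 ppm in Col-0. The highest value was that of 1 SOB3-D library. Over the other 2 genotypes it rose by 0.36 in the AHL lines (SE 0.07, adjusted p = 9.77e-05). AT1G76660, annotated as a hydroxyproline-rich glycoprotein family gene, had 26.8, 29.9 and 25.3 ppm in sob3-6, 28.8, 30.4 and 26.9 ppm in SOB3-D, 20.4, 21.1 and 21.3 ppm in pif4 pif5 pif7, and 24.8, 23.8 and 23.9 ppm in Col-0. The pif4 pif5 pif7 libraries were the lowest. It rose by 0.30 in the AHL lines over the other 2 genotypes (SE 0.05, adjusted p = 3.91e-05).

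SmD3, which codes for a core Sm protein of the spliceosome, had 18.9, 20.1 and 16.7 ppm in sob3-6, 19.4, 17.6 and 15.5 ppm in SOB3-D, 22.5, 21.2 and 22.4 ppm in pif4 pif5 pif7, and 23.7, 21.1 and 21.1 ppm in Col-0. The AHL-line libraries were lower, and pif4 pif5 pif7 and Col-0 overlapped. It fell in the AHL lines over the other 2 genotypes (-0.28, SE 0.06, limma adjusted p = 0.000715). Over Col-0 alone, DWA2, PUB43, AT1G76660 and SmD3 were called in SOB3-D (0.36, 0.33, 0.24 and -0.32, adjusted p = 0.0219, 0.00876, 0.0148 and 0.00615). In sob3-6 over Col-0 their changes were 0.22, 0.22, 0.17 and -0.23 (adjusted p = 0.206, 0.122, 0.128 and 0.0702). The differences between sob3-6 and SOB3-D were -0.13, -0.11, -0.07 and 0.08, none of them called (adjusted p = 0.399, 0.378, 0.479 and 0.471). Each SOB3-D call was lost without single libraries. For DWA2 these were Col-0 replicate 2 (adjusted p = 0.0725), Col-0 replicate 3 (0.0908) and SOB3-D replicate 1 (0.08). For PUB43 they were Col-0 replicate 2 (0.0512) and SOB3-D replicate 3 (0.105). AT1G76660 lost its call without Col-0 replicate 2 (0.0521) or SOB3-D replicate 2 (0.0725), and SmD3 without Col-0 replicate 1 (0.0516) or SOB3-D replicate 3 (0.0546). The SOB3-D call of DWA2 was also lost with DESeq2. DWA2 overlaps its neighbour AT1G76270 by 57 bases and PUB43 overlaps AT1G76400 by 158, each on opposite strands.

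**Figure D3:**
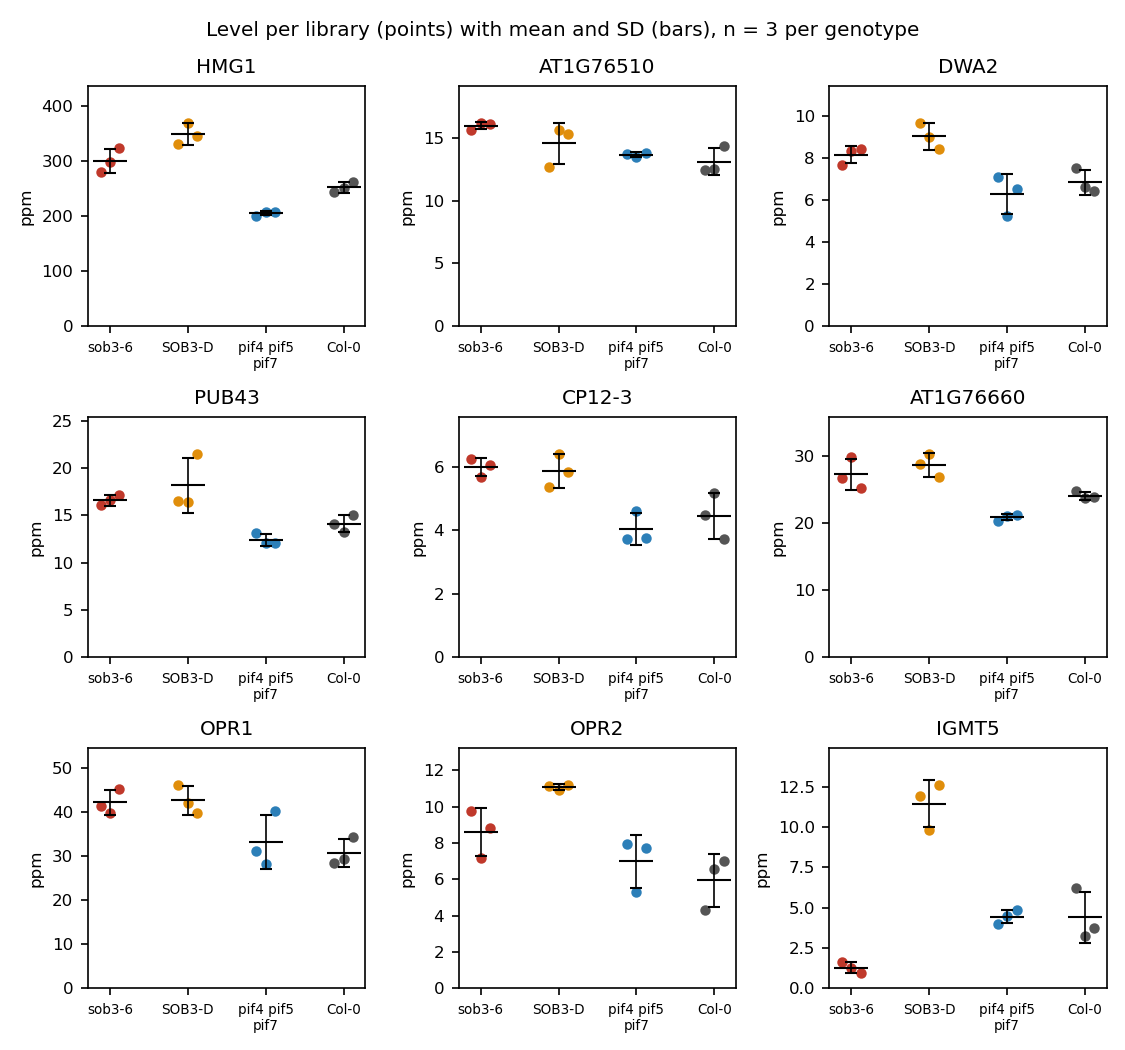
Level in ppm (y) of 9 genes beside SOB3 in each library of sob3-6, SOB3-D, pif4 pif5 pif7 and Col-0 (x), with points for libraries and bars for mean and SD (n = 3). HMG1, DWA2, PUB43, CP12-3 and AT1G76660 have all 6 AHL-line points above the other 6, and IGMT5 lies at 1.28 ppm in sob3-6 and 11.4 ppm in SOB3-D on either side of Col-0.

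The changes over Col-0 farthest from 0 were those of IGMT5 and AT1G76240, near the outer ends of the window. In these genes the 2 AHL lines did not move alike. IGMT5, named as an indole glucosinolate O-methyltransferase gene, starts 118.76 kb from SOB3. It had 1.6, 1.28 and 0.955 ppm in sob3-6, 11.9, 9.8 and 12.6 ppm in SOB3-D, 4.01, 4.48 and 4.85 ppm in pif4 pif5 pif7, and 6.22, 3.24 and 3.73 ppm in Col-0. The sob3-6 libraries were below all others and those of SOB3-D above all others. IGMT5 fell in sob3-6 (-1.21, SE 0.16, limma adjusted p = 4.95e-06) and rose in SOB3-D (1.24, SE 0.16, adjusted p = 1.17e-06) over Col-0. The difference of sob3-6 over SOB3-D was -2.45 (SE 0.16, adjusted p = 1.66e-12), and in pif4 pif5 pif7 the change was 0.05 (95% interval -0.28 to 0.38, adjusted p = 0.91). It overlaps AT1G76780, on the opposite strand, by 71 bases, and AT1G76780 was called in no comparison. AT1G76240, a DUF241 domain gene at -101.03 kb, had 16.7, 17.1 and 18.1 ppm in sob3-6, 4.32, 5.41 and 6.08 ppm in SOB3-D, 13.1, 14.9 and 15.4 ppm in pif4 pif5 pif7, and 16.3, 19.5 and 18 ppm in Col-0. The SOB3-D libraries were far below all others. It fell in SOB3-D over Col-0 (-1.60, SE 0.10, adjusted p = 6.53e-13), while the change in sob3-6 was -0.05 (95% interval -0.26 to 0.16, adjusted p = 0.809). The test of sob3-6 over SOB3-D gave 1.55 (SE 0.10, adjusted p = 6.94e-13). These calls of IGMT5 and AT1G76240 were kept under every alternative run.

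The other genes called in SOB3-D over Col-0 were mixed in direction. AT1G76360, a protein kinase gene, rose by 0.68 to 27.3 ± 3.6 ppm in SOB3-D, against 16.6 ± 0.47 ppm in Col-0 (SD, n = 3, limma adjusted p = 2.8e-06). ATL8, a RING finger gene, rose by 0.49 to 2.78 ± 0.43 ppm in SOB3-D, against 1.68 ± 0.27 ppm in Col-0 (adjusted p = 0.0153). That call was lost without Col-0 replicate 3 (0.0911) or SOB3-D replicate 2 (0.0845), and with DESeq2. The nucleotide sugar transporter gene AT1G76670 rose by 0.26 (adjusted p = 0.000622), and the DNAJ domain gene AT1G76700 by 0.28 (adjusted p = 0.0426). The call of AT1G76700 was lost without any one Col-0 library, sob3-6 replicate 2, or SOB3-D replicate 1 or 3 (adjusted p = 0.0506 to 0.211). It was also lost with no filter, with DESeq2 and with only the genotypes compared. On the lower side were AT1G76620 with -0.56 (adjusted p = 0.000437), AT1G76720, of the eIF-2 family, with -0.30 (adjusted p = 0.000299), and AT1G76800, of the vacuolar iron transporter family, with -0.81 (adjusted p = 0.00036). AT1G76800 averaged 5.24 ± 0.71 ppm in sob3-6, 3.89 ± 0.5 ppm in SOB3-D, 7.75 ± 1.5 ppm in pif4 pif5 pif7 and 7.75 ± 2.1 ppm in Col-0. With both AHL lines over the other 2 genotypes it was called lower (-0.645, limma adjusted p = 8.39e-05), also under every alternative. It was lower than pif4 pif5 pif7 in sob3-6 (-0.48, adjusted p = 0.0219) and in SOB3-D (-0.83, adjusted p = 0.000214). In sob3-6 it was not called over Col-0, and its call over pif4 pif5 pif7 was lost without single libraries (adjusted p up to 0.123).

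The other genes called higher in sob3-6 over Col-0 were AT1G76270, an O-fucosyltransferase family gene (0.39, limma adjusted p = 0.0135), the bromodomain gene AT1G76380 (0.31, adjusted p = 0.0329), the ribophorin I gene AT1G76400 (0.20, adjusted p = 0.0359) and the tetratricopeptide repeat gene AT1G76630 (0.23, adjusted p = 0.0224). Ribophorin I is a subunit of the complex that attaches glycans to proteins in the endoplasmic reticulum. Each call was lost without single libraries. AT1G76270 went to 0.0915 without Col-0 replicate 1 and 0.0553 without sob3-6 replicate 3, and AT1G76380 to 0.241 and 0.0704 when sob3-6 replicate 2 or 3 was left out and 0.146 and 0.0933 when Col-0 replicate 2 or 3 was. AT1G76400 was lost without any one library of sob3-6 or Col-0 (0.0623 to 0.124), and AT1G76630 without any of these but Col-0 replicate 2 (0.0553 to 0.0917). The calls of AT1G76380, AT1G76400 and AT1G76630 were also lost with median-of-ratios scaling, quantile normalization, edgeR and DESeq2. That of AT1G76270 was lost with quantile normalization and DESeq2. With both AHL lines over the other 2 genotypes, calls were also made for 4 genes called in none of the 3 comparisons over Col-0. These were FRS4, of the FAR1-related family (0.19, adjusted p = 0.0127), AT1G76610, of the MIZU-KUSSEI-like family (0.41, adjusted p = 0.0116, and 0.0599 without sob3-6 replicate 3), CP12-3 above and AT1G76450, which was lower (-0.10, adjusted p = 0.0163). The FRS4 call was lost with either scaling and with DESeq2, and that of AT1G76610 with DESeq2.

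Set directly against each other, sob3-6 was higher than SOB3-D in 7 of the 46 genes (15.2%), where 24.8% of all tested genes were, and lower in 6 (13%), where 10.9% were. In either direction 28.3% were called, fewer than the 35.7% of all tested genes. After median-of-ratios scaling 6 were higher and 9 lower, and after quantile normalization 6 and 8. The higher genes included AT1G76240, AT1G76620 (0.78, limma adjusted p = 3.79e-06), AT1G76550 and AT1G76400 (0.32, adjusted p = 0.000234). The lower genes included IGMT5, AT1G76590, AT1G76360 (-0.51, adjusted p = 0.000116), AT1G76570 and HMG1.

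Against pif4 pif5 pif7, 15 genes (32.6%) were higher in sob3-6, beside 25.7% of all tested genes, and 5 lower (10.9%), where 8.02% were. After quantile normalization 9 were higher and 5 lower, and after median-of-ratios scaling 10 and 6. The lower count was 3 without sob3-6 replicate 3 or pif4 pif5 pif7 replicate 3. In SOB3-D over pif4 pif5 pif7, 14 were higher (30.4%), where 18.3% of all tested genes were, and 8 lower (17.4%), where 15.3% were. That lower count was 5 without SOB3-D replicate 3 and 4 without pif4 pif5 pif7 replicate 3. HMG1 was among the higher genes in both (0.54 and 0.76, adjusted p = 1.85e-09 and 1.01e-12). The 8 genes lower in SOB3-D than in pif4 pif5 pif7 included CML38 (-0.56, limma adjusted p = 0.042). CML38 passed the filter only through its pif4 pif5 pif7 libraries, so this call leans on the genotype that let it in. It was the only call of CML38, and it was lost under 8 of 20 alternatives.

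**Figure D4:**
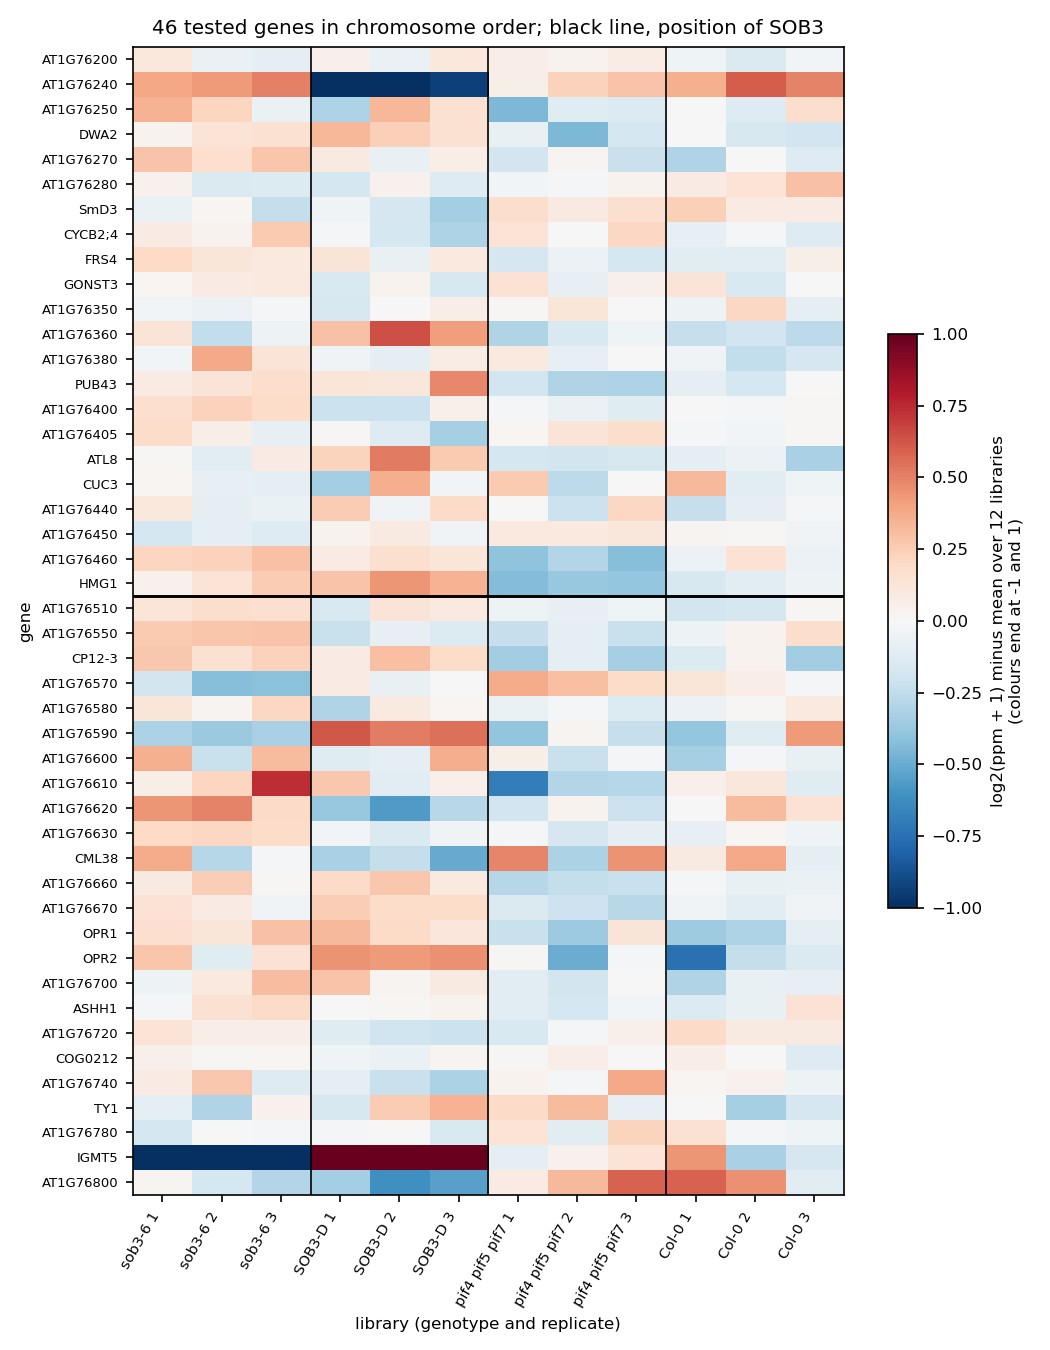
Level of the 46 tested genes (rows, in chromosome order, with a black line at SOB3) in the 12 libraries (columns), as log2(ppm + 1) minus the mean over the 12 libraries, with red above and blue below that mean and colours ending at -1 and 1. IGMT5 is blue in sob3-6 and red in SOB3-D, AT1G76240 is blue in SOB3-D, and the rows next to the line, HMG1 and AT1G76510, stay paler.

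In 34 of the 46 genes at least 1 of the 7 comparisons gave a call, and in 12 none did. Single comparisons called 6.33% to 35.7% of all tested genes. The share of all genes with at least 1 call was not counted, so 34 of 46 has no measure beside it. The 12 genes without a call included CUC3, a NAC gene of organ boundaries, ASHH1, a SET domain gene, and TY1, a thioredoxin gene. Their changes lay between -0.11 and 0.29 in sob3-6, between -0.09 and 0.32 in SOB3-D and between -0.25 and 0.31 in pif4 pif5 pif7 over Col-0. CUC3 averaged 1.02 ± 0.09 ppm in sob3-6, 1.13 ± 0.52 ppm in SOB3-D, 1.11 ± 0.38 ppm in pif4 pif5 pif7 and 1.2 ± 0.37 ppm in Col-0, and its 95% interval for SOB3-D over Col-0, -0.45 to 0.33, leaves room for changes of the size called elsewhere.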

How the data were processed

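RNA-seq libraries of 4 genotypes, 3 each, were read from 1 table per library. Per the labels, the authors deposited for every transcript a signal scaled to the mapped tags, in ppm, and per the submitters' processing notes bcl2fastq, Bowtie 1.2.1 and TAIR10 were used. The labels' protocols name a stranded mRNA kit. The deposited signal of a library summed to 1599902 to 1626178 over 32950 transcripts, more than ppm allow, so it was treated as a scaled read signal. All values were whole multiples of 1 read (100% within 0.01 reads, largest deviation 8.04e-05), so whole reads were recovered. Between 7.64 and 16.1 reads made up 1 ppm. Such depths cover counting error only.

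Transcripts that reached 1 ppm in 3 or more of the 12 libraries were kept. The values log2(ppm + 1) were fitted by limma 3.58.1 (R 4.3.3, mean-variance trend, robust) with 1 coefficient per genotype. There were 8 residual degrees of freedom, and the prior added 21.3 (median). Every adjusted p is from limma unless another tool is named. This gave 25710 transcripts of 18502 genes, and the steps were tested on simulated data. Alternatives were a pseudocount of 0.25, no filter, median-of-ratios scaling, quantile normalization, edgeR 4.0.16 and DESeq2 1.42.0 on whole reads, only the genotypes compared, a replicate block and leaving out each library. Replicates correlated at 0.992 to 0.996 across transcripts, and no pair of libraries was identical. Deviations of same-numbered libraries correlated weakly, at -0.049 to 0.153. In 0 of 6 genotype pairs were all 3 correlations over 0.1, so numbers were not taken as pairs.

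Values in every library were given for the 6 loci nearest SOB3 on each side and for genes called in both AHL lines over the other 2 genotypes whose libraries did not overlap, and changes for other called genes. OPR1, OPR2, AT1G76280, IGMT5 and AT1G76240 were shown in full after their values were seen. Members and lists were chosen with earlier results of these data known. Gene positions, overlaps and sequences are from RefSeq TAIR10.1, which held 24747 of the loci. The files hold no coordinates. Of 65 annotated loci in the window, 7 had no row in the files and were not analysed here.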

Additional observations from a re-analysis of the deposited data

How the results depend on the processing

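None of the 114 called values reversed under any alternative, and 62 were called under all of them. Calls lost numbered 0 with a pseudocount of 0.25, 11 with no filter, 18 with median-of-ratios scaling, 24 with quantile normalization, 18 with edgeR, 42 with DESeq2 and 7 of 90 with only the genotypes compared. With the replicate block, whose numbers were not taken as pairs, 0 were lost, 6 genes were lower in sob3-6 over Col-0 and 6 met the pattern of both AHL lines moving alike without pif4 pif5 pif7. In 12 of 18 cases a library correlated best with its own number, a hint from the data and not the design. Higher genes in sob3-6 over Col-0 numbered 10, against 6 with no filter, 3 with median-of-ratios scaling or edgeR, 2 with quantile normalization or DESeq2, and 1 to 9 without 1 library. Lower genes there numbered 3, against 6 with either scaling or edgeR and 5 with DESeq2. Higher genes in pif4 pif5 pif7 over Col-0 numbered 0, and 2 with edgeR. DESeq2 gave 4 higher in sob3-6 over SOB3-D in place of 7, 10 in both AHL lines over the other 2 genotypes in place of 18, and 6 in sob3-6 over pif4 pif5 pif7 in place of 15, where quantile normalization gave 9. Lower genes in sob3-6 over pif4 pif5 pif7 numbered 5, against 3 with no filter and 3 to 5 without 1 library. In SOB3-D over pif4 pif5 pif7 they numbered 8, against 4 with DESeq2, 5 with only the genotypes compared and 4 to 8 without 1 library. The pattern of both AHL lines alike held for 3 genes, for 1 with no filter and for 0 to 4 without 1 library. The shares of all tested genes under these alternatives were not counted, except in either direction with edgeR. The cause of these differences was not tested. SOB3-D had the fewest reads, 7637822 to 8877404 per library, which limits its low genes.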

Other observations

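Position and strand were also set beside the calls. In sob3-6 over Col-0, 5 of 22 tested genes left of SOB3 and 5 of 24 right of it were called higher, and in SOB3-D over Col-0 5 of 22 and 7 of 24. On the strand of SOB3, 4 of 23 were higher in sob3-6 and 7 of 23 in SOB3-D, and on the opposite strand 6 of 23 and 5 of 23. Of all tested genes 9.43% were called higher in sob3-6 over Col-0 and 11.6% in SOB3-D over Col-0. The median log2 change of the 10 nearest tested genes was 0.16 in sob3-6, 0.13 in SOB3-D and -0.10 in pif4 pif5 pif7 over Col-0. In the 36 others it was 0.14, 0.04 and 0.01. No test of these differences was made.

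CML38, a calmodulin-like gene of calcium signalling, averaged 0.631 ± 0.38 ppm in sob3-6, 0.239 ± 0.11 ppm in SOB3-D, 0.882 ± 0.53 ppm in pif4 pif5 pif7 and 0.742 ± 0.29 ppm in Col-0 (SD, n = 3). The SOB3-D libraries held 6 of its reads in all. AT1G76530, a left-out auxin efflux carrier family gene between AT1G76510 and AT1G76550, was called lower in both AHL lines over Col-0 (-0.61 in sob3-6 and -0.55 in SOB3-D, limma adjusted p = 0.0144 and 0.0155) and had a change of 0.04 in pif4 pif5 pif7 (adjusted p = 0.935). Its 6 AHL-line libraries lay at 1.05 to 2.14 ppm and the other 6 at 2.35 to 3.23 ppm. AT1G76530 thus met the pattern of both AHL lines moving alike without pif4 pif5 pif7, and it starts 13.11 kb from SOB3. AT1G76520, beside it, rose in sob3-6 over Col-0 (0.48, adjusted p = 0.00323) and had a change of -0.06 in SOB3-D (adjusted p = 0.736).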
